A study of Mus musculus with 4 samples.

Results

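Krt10/Krt6b cells are a class of cells from the vaginal epithelium of ovary-intact C57BL/6 mice, chosen by the keratin transcripts they hold. They were taken from the 2 libraries named WT in the labels. A cell was a member when it had at least 200 detected genes, at most 20% mitochondrial transcripts, a summed Krt10 and Krt6b count of at least 4 that was larger than its Krt13, Krt4 and Sprr1a count, a Krt1 and Calm4 count of at most 2, and at most 1 transcript of 10 cell cycle genes. The rule gave 542 cells of 4966 kept in the WT libraries and of 8446 kept in the series. WT 1 held 345 members of 2979 cells (11.6%, exact 95% binomial interval 10.5 to 12.8%) and WT 2 held 197 of 1987 (9.91%, 8.64 to 11.3%). The intervals cover counting error only.

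The study profiled single cells by Drop-seq, which captures each cell in a droplet, barcodes its transcripts and counts them as unique molecular identifiers (UMIs). It compared ovary-intact (WT) mice with mice whose ovaries had been removed by surgery (OVX), in 2 libraries per group, each a pool of 5 animals. No other genotype, allele or agent is named for either group, and no age is given. The series text speaks of duplicates and leaves unsaid if 1 pool was split or if 2 pools were made. The p-values below rest on these 2 libraries alone. The spread behind them was estimated with all genes and classes of a fit together. A small p-value therefore need not mean that a gene moved alike in both libraries. Differences between the libraries that all groups share are taken out by a library term in the fit. The spread that is left may therefore be technical.

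In a stratified squamous epithelium the basal cells divide, anchor the tissue to its matrix and make the keratins Krt5 and Krt14. Cells that leave the basal layer become suprabasal: they build more desmosomes, switch to other keratins and begin to prepare a cornified envelope. Krt10 is a keratin of differentiating suprabasal cells of the epidermis. Krt6b and its partner Krt16 are known from hair follicles, oral and other lining epithelia and from wounded or activated skin. The vaginal epithelium of the mouse thickens and cornifies under oestrogen.

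The WT libraries held 5845107 and 1934634 UMIs. Members had a median of 1775 UMIs in WT 1 and 1041 in WT 2, against 1275 and 698.5 in the Krt5/Krt14 cells they are compared with below. The median mitochondrial share of members was 3.43% and 3.11%, against 4.30% and 4.14% in Krt5/Krt14 cells. Between 2 and 15 cell barcodes were shared by any pair of libraries, and 0 of the members' barcodes. Doublets were not called, and leaving out the cells with the most UMIs is among the alternatives tried. Levels below are UMIs per 1000000 UMIs of the summed cells (CPM), given for WT 1 first and WT 2 second.

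Most members held both keratins that chose them. Krt10 and Krt6b were both present in 222 of the 345 members of WT 1 and in 129 of the 197 of WT 2. Krt10 alone was found in 51 and 30 members, and Krt6b alone in 72 and 38. Krt6b gave more UMIs than Krt10 in 201 and 118 members, Krt10 gave more in 133 and 75, and the rest were ties. At least 90% of the summed count came from 1 of the genes in 167 and 90 members. The median summed count was 17 and 10 UMIs, and the highest were 173 and 101. Across cells, the correlation of Krt10 with Krt6b per 10000 UMIs was weak in both libraries (Pearson's r of -0.10 over 345 cells and -0.05 over 197; Spearman's rho of -0.18 and -0.19). It is given as a description, since the rule removes cells low in both genes and the 2 shares have 1 denominator.

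**Figure D1:**
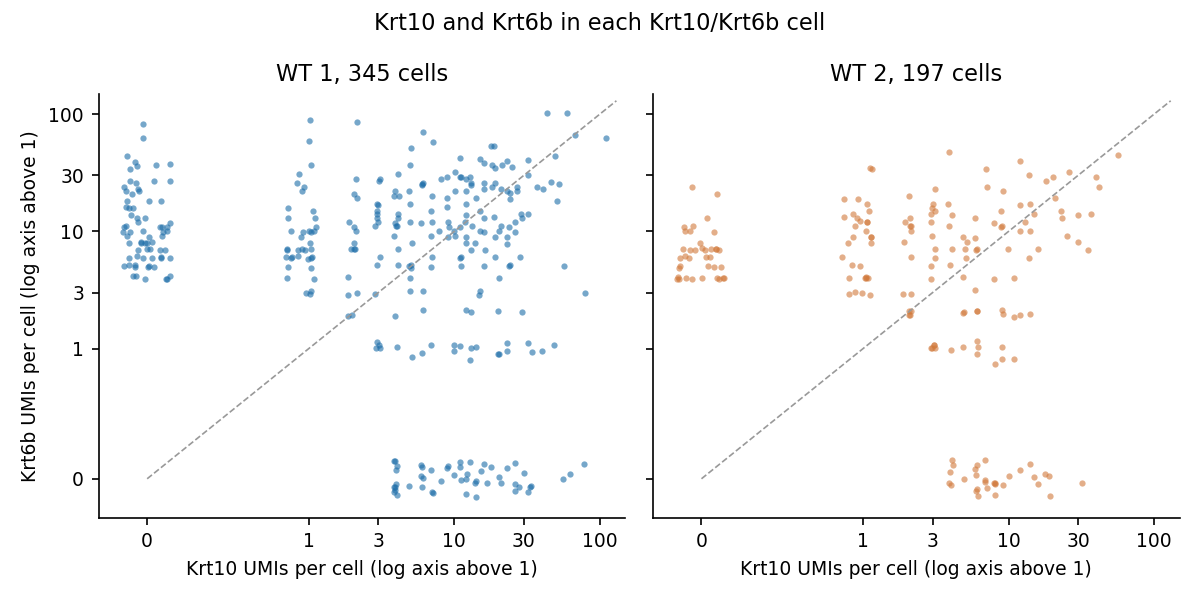
Krt10 UMIs (horizontal) and Krt6b UMIs (vertical) in each member, on axes that are logarithmic above 1, with points shifted slightly at random and a dashed line of equal counts. Both WT 1 (345 cells) and WT 2 (197 cells) hold a column of cells with Krt6b alone, a row of cells with Krt10 alone and a larger field with both.

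The threshold cuts through a continuous range. In WT 1 the 38 members with a summed count of 4 to 5 had a Krt16 level of 6537 CPM, against 2789 CPM in the 76 cells with a sum of 2 to 3 that met the other conditions. In WT 2 the same values were 2642 CPM over 42 cells and 1401 CPM over 72. Mt4 was 203 against 123 CPM in WT 1 and 245 against 377 CPM in WT 2, so that cells just inside and just outside the threshold were not ordered alike for Mt4 in the 2 libraries. Free transcripts in the droplets can also add UMIs to a cell. Among 11 WT 1 cells with at least 8 UMIs of 4 MHC class II genes, which mark antigen-presenting cells, 3 held a Krt6b UMI, and 34 of their 37 Krt6b UMIs were in 1 cell. Krt16 had a UMI in 5 of them, with 48 of 79 UMIs in 1 cell and a level of 4475 CPM against 16756 CPM in members. The 6 such cells of WT 2 held 0 UMIs of Krt10, Krt6b, Krt16, Mt4 and Dsg1a. Krt14, a far more abundant transcript, had a UMI in 8 of the 11 and 3 of the 6, at 10365 and 6426 CPM against 27815 and 25405 CPM in members. The median depth of these cells was 995 and 511.5 UMIs.

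The label's other markers were checked against the members. Krt16, the type I partner of the Krt6 keratins, was detected in 292 of 345 members of WT 1 and in 149 of 197 of WT 2. Mt4, a metallothionein known from stratified squamous epithelia, was detected in 176 and 70. Dsg1a, a desmoglein that joins suprabasal cells through desmosomes, was detected in 112 and 54. These genes were chosen as markers from the same libraries, so their levels are a description with no test, here and below; where a list holds one of them, its count includes that gene. Krt16 stood at 16756 and 4829 CPM in members, at 756 and 345 CPM in Krt5/Krt14 cells, at 9245 and 3706 CPM in Krt1/Calm4 cells and at 659 and 116 CPM in Krt13/Krt4/Sprr1a cells. Within each library it was higher in members than in each of the other classes, and WT 1 was higher than WT 2 in every class. Of the 50-base words in the last 500 bases of each Krt16 transcript, 16.9% also occur in other genes, so its counts are uncertain.

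Mt4 had another order. It stood at 1072 and 860 CPM in members, at 2845 and 2747 CPM in Krt1/Calm4 cells, at 145 and 96.4 CPM in Krt13/Krt4/Sprr1a cells and at 44.9 and 51.8 CPM in Krt5/Krt14 cells. The members thus lay between the Krt1/Calm4 cells and the remaining classes, with no overlap between libraries. Dsg1a stood at 277 and 337 CPM in members and at 240 and 363 CPM in Krt1/Calm4 cells, where the classes overlapped. It was 28.2 and 35.9 CPM in Krt5/Krt14 cells and 30.6 and 67.4 CPM in Krt13/Krt4/Sprr1a cells. Krt10 itself was highest in Krt1/Calm4 cells, at 18218 and 16031 CPM against 4888 and 5318 CPM in members, whereas Krt6b was 4416 and 5261 CPM there and 6338 and 6891 CPM in members.

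**Figure D2:**
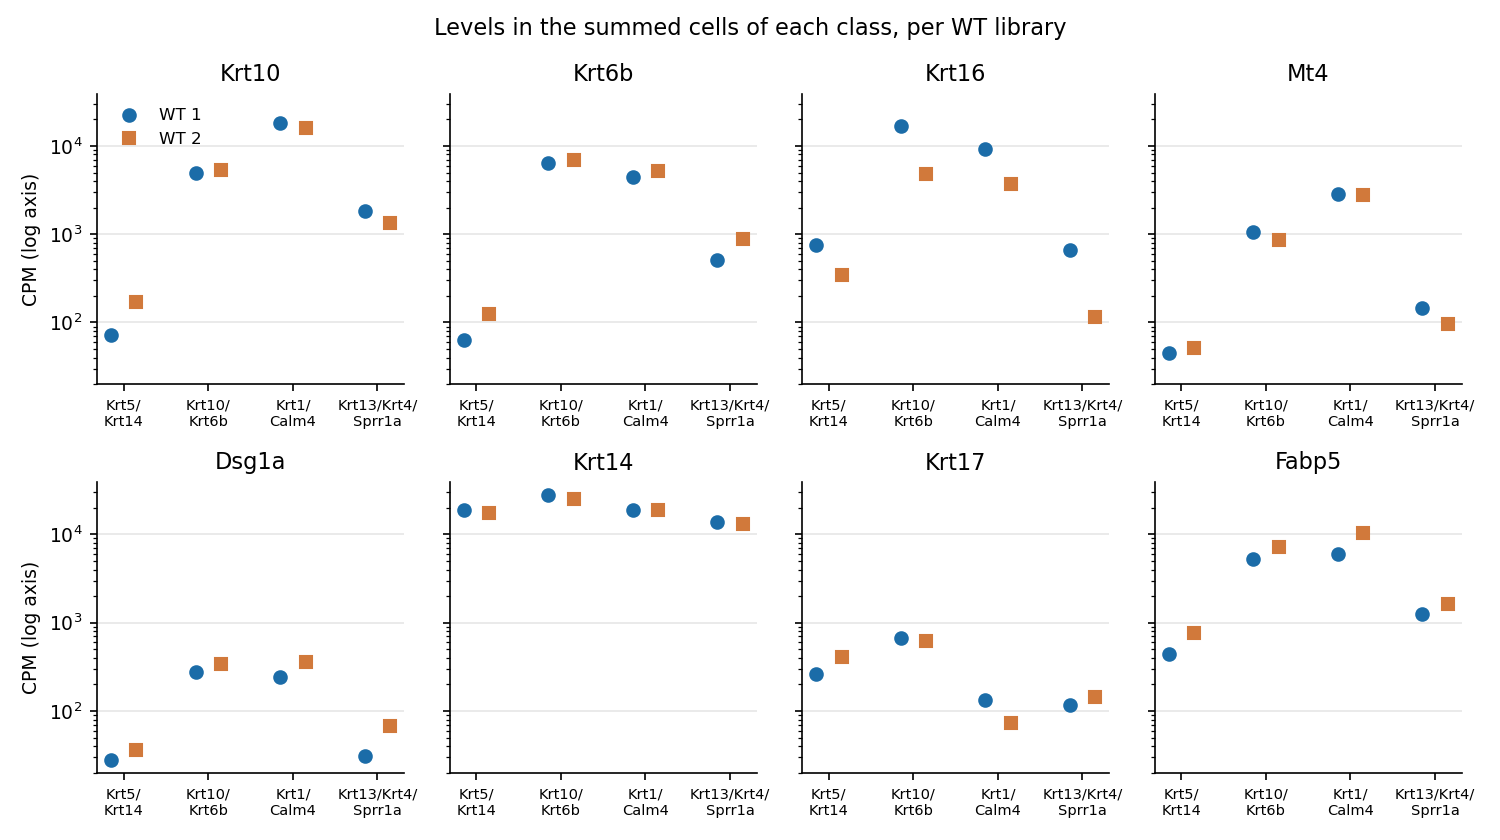
Level in CPM (log axis) of 8 genes in the summed cells of each class, with circles for WT 1 and squares for WT 2. Krt10 and Mt4 are highest in Krt1/Calm4 cells, Krt16 and Krt17 are highest in Krt10/Krt6b cells within each library, and Krt14 lies between 13161 and 27815 CPM in all of them.

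Promoter sequence was on hand for 2 of the 5 markers, Krt10 and Mt4, the markers whose levels stepped up again in Krt1/Calm4 cells. The 250 bases before each RefSeq start are shown for the build GRCm38.p6, 5′ to 3′ on the gene's strand. Krt10 lies on the minus strand (window chr11:99389365-99389614) and Mt4 on the plus strand (window chr8:94136954-94137203). Capitals mark the letters TATAAA, the core of a TATA box, and matches to the metal response element, searched as TGCACNC and TGCGCNC, on both strands.
Krt10: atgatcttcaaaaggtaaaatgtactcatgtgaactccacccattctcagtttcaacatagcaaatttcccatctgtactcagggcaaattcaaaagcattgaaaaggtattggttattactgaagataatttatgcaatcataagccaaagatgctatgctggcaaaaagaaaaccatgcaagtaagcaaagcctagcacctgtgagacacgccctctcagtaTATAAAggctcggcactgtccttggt
Mt4: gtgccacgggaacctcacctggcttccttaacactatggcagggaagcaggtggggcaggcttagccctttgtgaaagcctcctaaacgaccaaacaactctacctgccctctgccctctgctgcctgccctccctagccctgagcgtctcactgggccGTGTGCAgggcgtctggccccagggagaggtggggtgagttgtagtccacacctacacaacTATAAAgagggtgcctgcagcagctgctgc
TATAAA occurs once in each window and in 12.4% of the 32851 promoter windows of the same length. A metal response element match occurs once in the Mt4 window, none in the Krt10 window, and in 21.4% of all windows. The AP-1 letters TGANTCA have no match in either window and are held by 6.75% of all windows. A match is a description of the letters, not a measured site.

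Members kept the basal keratins. Every member of both libraries held a Krt5 or Krt14 UMI, with a median of 93 UMIs of the pair per cell in WT 1 and 32 in WT 2. Krt14 stood at 27815 and 25405 CPM in members, against 18899 and 17475 CPM in the Krt5/Krt14 cells, which were chosen by these genes. Krt5 stood at 26250 and 6878 CPM in members and at 24994 and 6588 CPM in Krt5/Krt14 cells. At least 1 UMI of Krt13, Krt4 or Sprr1a, genes of the other differentiated class, was present in 193 of 345 and 77 of 197 members, and 4 or more in 87 and 19. In the cells with MHC class II UMIs, which are shallower, a UMI of these 3 genes was found in 2 of 11 and 0 of 6, and one of Krt5 or Krt14 in 8 of 11 and 4 of 6.

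The first comparison was with basal cells, here the 1849 Krt5/Krt14 cells (989 and 860) that had at least 4 UMIs of Krt5 and Krt14 and at most 1 UMI each of the summed Krt10 and Krt6b, Krt13, Krt4 and Sprr1a, and Krt1 and Calm4 genes. In members, desmosome genes, secreted and calcium-binding suprabasal genes, cornified envelope genes and enzymes of cholesterol synthesis were higher, and genes of basal adhesion and DNA replication were lower. UMIs were summed per library and class and tested with edgeR's quasi-likelihood test, with the library as a term and Benjamini-Hochberg adjustment over all genes tested. The rule's own genes were kept out. Low counts were filtered over the 4 classes together, so a gene nearly absent from members or from the compared class could enter through another class. Such a gene could hardly be called higher in the class that lacks it. The list counts and medians below are therefore partly set by this filter. Of 6614 genes, 972 (14.7%) passed at an adjusted p under 0.05, 482 higher (7.29%) and 490 lower (7.41%) in members. The median log2 fold change over all genes tested was -0.01. Every gene called higher or lower below passed this test.

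Desmosome genes were mostly higher. Of 11 measured members of the list, 9 were higher and 1 was lower, with a median log2 fold change of 1.17; the 9 include the marker Dsg1a. Dsc2, a desmocollin, stood at 841 and 763 CPM in members against 174 and 229 CPM in Krt5/Krt14 cells (log2 fold change 2.22 ± 0.12, SE). Dsg1b, a second desmoglein 1 gene, stood at 244 and 190 CPM against 55.7 and 67.6 CPM (2.06 ± 0.19). Of the end sequence of Dsg1b, 11.3% is shared, most often with the marker Dsg1a. Dsg2, the desmoglein of basal and simple epithelial cells, went the other way, at 17.8 and 29.5 CPM against 73.1 and 70.4 CPM (-1.65 ± 0.34, edgeR adjusted p = 1.85e-05), a call that DESeq2 did not make. The other genes higher were Dsc3, Dsp, Jup, Pkp1, Pkp3 and Perp. Gjb2, which encodes the gap junction protein connexin 26, was 442 and 375 CPM against 91.9 and 92.0 CPM (2.33 ± 0.15).

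Among secreted and calcium-binding suprabasal genes 11 of 12 were higher and 0 lower, with a median of 1.59. Fabp5, an epidermal fatty acid-binding protein, stood at 5273 and 7123 CPM in members against 443 and 766 CPM (3.55 ± 0.09). Its processed copies Gm14328 and Gm6166 were higher too, and 53.6% of the end of Gm6166 is shared sequence, so these calls cannot be separated. Ly6d, a GPI-anchored surface protein, stood at 7993 and 8692 CPM against 1996 and 2521 CPM (2.04 ± 0.08). Lypd3, a suprabasal surface protein of the same family, was 253 and 565 CPM against 74.4 and 162 CPM (1.92 ± 0.15). Spink5, the inhibitor of the kallikreins that cleave desmosomes at shedding, was 8882 and 3441 CPM against 2881 and 1246 CPM (1.70 ± 0.09). In all of these the 2 libraries of the members lay above both libraries of the Krt5/Krt14 cells.

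Of 14 measured genes of the cornified envelope, the cross-linked shell of dead squamous cells, 10 were higher and 0 lower, with a median of 1.96. Most of them stood at low levels. Those nearly absent from Krt5/Krt14 cells, such as Tgm1 and Sprr2d, entered the test through other classes and could hardly be called lower in members. Tgm1, a transglutaminase that cross-links the envelope, was 42.3 and 25.3 CPM in members against 4.02 and 1.44 CPM (3.59 ± 0.55), and the small proline-rich gene Sprr2d was 31.4 and 80.1 CPM against 2.01 and 2.87 CPM (4.31 ± 0.53). Sprr2d was uneven among members, at 79.0 and 235 CPM in those with more Krt10 than Krt6b UMIs and 10.4 and 0.0 CPM in those with more Krt6b. BC100530, a stefin A gene, was abundant at 5846 and 11302 CPM against 1118 and 1718 CPM (2.70 ± 0.09), but 28.9% of its end sequence is shared with other genes. Cst6, the cysteine protease inhibitor cystatin M/E, was 88.8 and 169 CPM against 5.37 and 10.1 CPM (4.16 ± 0.34). Other keratins split: Krt6a was 7527 and 5984 CPM against 1808 and 1550 CPM (2.15 ± 0.09), Krt17 was 671 and 624 CPM against 262 and 405 CPM (1.21 ± 0.11), and Krt15, a keratin of basal cells, was 111 and 143 CPM against 748 and 975 CPM (-2.64 ± 0.14). Of the end sequence of Krt17, 9.53% is shared with other genes, most often with the far more abundant Krt14. This limit holds for Krt17 in every comparison below. All 3 measured metallothioneins were higher, but Mt1 (0.76 ± 0.09) and Mt2 (0.62 ± 0.09) by far less than the marker Mt4.

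Of 25 transcription factors of stratified epithelium, 8 were higher and 2 (Trp63 and Hopx) lower, with a median of 0.26. The 8 include Ovol1, which was higher in WT 1 alone, at 31.4 and 12.7 CPM against 8.72 and 15.8 CPM. Grhl1, a grainyhead factor of desmosome genes, was 39.6 and 42.2 CPM against 1.34 and 8.62 CPM (3.52 ± 0.55). Its relative Grhl3, a barrier factor, was 42.3 and 25.3 CPM against 8.05 and 11.5 CPM (2.13 ± 0.46), a call that DESeq2 did not make. Zfp750, a regulator of late epidermal genes, was 132 and 84.3 CPM against 28.2 and 28.7 CPM (2.18 ± 0.25). In the Notch pathway, which drives keratinocytes out of the basal state, 3 of 7 genes were higher and 1 lower. The 3 include Hes1, a target, which was 406 and 413 CPM in members against 282 and 482 CPM, so that it was higher in WT 1 and lower in WT 2, and its call was lost with DESeq2, with no filter on low counts and at a summed count of at least 8. Nrarp, a Notch target that feeds back on the pathway, was 60.1 and 71.7 CPM against 19.4 and 25.9 CPM (1.69 ± 0.31). Jag2, a ligand, was 9.56 and 0.0 CPM in members against 99.9 and 66.1 CPM (-3.50 ± 0.41).

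Of 21 measured genes of cholesterol synthesis, 13 were higher and 0 lower, with a median of 1.3. Lss, which closes the sterol rings, was 61.5 and 67.5 CPM in members against 19.4 and 15.8 CPM (1.90 ± 0.33). Fdps, an enzyme of the isoprenoid part of the pathway, was 99.7 and 257 CPM against 21.5 and 93.4 CPM (1.92 ± 0.22), with 50.5% of its end sequence shared. Insig1, a sterol sensor, was 15.02 and 33.7 CPM against 4.02 and 1.44 CPM (2.73 ± 0.70). In lipid barrier synthesis 3 of 10 genes were higher and in glycolysis 5 of 15, with 1 lower.

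Basal adhesion and matrix genes went down as a group: 11 of 14 were lower and 2 (Cd44 and Sdc1) higher, with a median of -1.01. The integrin Itga3 was 6.83 and 0.0 CPM in members against 59.0 and 48.9 CPM (-3.27 ± 0.50), and Itga2 was 16.4 and 0.0 CPM against 111 and 31.6 CPM (-2.74 ± 0.37). Lamb3, a chain of the laminin under basal cells, was 38.2 and 63.3 CPM against 187 and 160 CPM (-1.84 ± 0.23). Itgb4, the integrin of hemidesmosomes, was 54.6 and 50.6 CPM against 134 and 226 CPM (-1.41 ± 0.22), a call that DESeq2 did not make. The falls of largest size also included the matrix genes Col12a1 (-2.96 ± 0.33), Agrn (-2.54 ± 0.31) and Thbs1 (-2.36 ± 0.23).

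DNA replication genes were lower. The rule and the gate of the Krt5/Krt14 cells had both removed cells with more than 1 UMI of the 10 mitotic genes. That limit need not remove cells in S phase. It is a raw count, so it was stricter for the deeper members, and its part in the falls was not tested. Of 26 measured S phase genes, 24 were lower and 0 higher, with a median of -2.03. Lig1, the ligase of replicating DNA, was 39.6 and 8.43 CPM in members against 238 and 119 CPM (-2.57 ± 0.25). Mcm5, a subunit of the replicative helicase, was 5.46 and 8.43 CPM against 59.0 and 48.9 CPM, and Mcm7, another, was 10.9 and 12.7 CPM against 62.4 and 106 CPM (-2.55 ± 0.38). Of the end sequence of Mcm7, 30.1% is shared with other genes. Uhrf1, which keeps DNA methylation through replication, was 2.73 and 8.43 CPM against 31.5 and 35.9 CPM (-2.78 ± 0.64). None of 54 cytosolic ribosomal protein genes passed in either direction, with a median of 0.02.

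Of 13 hormone receptor and target genes, 2 were higher and 2 lower. Igfbp3, an insulin-like growth factor binding protein, was 31.4 and 8.43 CPM in members against 215 and 54.6 CPM (-2.62 ± 0.28), and Rbp2, a retinol-binding protein, was 99.7 and 224 CPM against 26.2 and 53.2 CPM (2.14 ± 0.24). Esr1, the oestrogen receptor alpha, was 69.6 and 63.3 CPM against 134 and 89.1 CPM (-0.70 ± 0.23, edgeR adjusted p = 0.0163). That call was lost with DESeq2, with no filter on low counts and when every cell was thinned to 800 UMIs. Il1r2, the decoy receptor of interleukin-1, was 796 and 687 CPM against 1652 and 1448 CPM (-0.91 ± 0.10).

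Markers of other cell types were mostly at low levels in members. Of 18 macrophage and dendritic markers 5 had a UMI, with a summed level of 4.10 and 12.7 CPM, and Ptprc, Lyz2 and Tyrobp were at 0. In Krt5/Krt14 cells the sum was 59.0 and 178 CPM. Of 8 fibroblast markers 2 had a UMI, with 99.7 and 67.5 CPM against 354 and 283 CPM, nearly all of it Sparc, and Col1a1, Col1a2, Col3a1 and Dcn were at 0 in members. Of 9 T or NK markers only Trbc2 had a UMI in members, at 83.3 and 122 CPM against 65.7 and 73.3 CPM in Krt5/Krt14 cells. It was called higher in members. That call was lost with DESeq2, with thinning, with no filter on low counts and without the cells above the 95th percentile of UMIs. Cd3d, Cd3e and Cd3g were at 0 in members. Of 8 neutrophil and erythroid markers 3 had a UMI, with a sum of 23.2 and 42.2 CPM against 0.0 and 2.87 CPM. Among them S100a9, a calcium-binding protein of neutrophils that activated keratinocytes also make, gave 4 and 9 UMIs in members and 0 in Krt5/Krt14 cells and was called higher (edgeR adjusted p = 2.49e-05), while Retnlg and Csf3r were at 0. Simple epithelial markers, of which 7 of 11 had a UMI, summed to 397 and 299 CPM against 541 and 548 CPM, with Krt8 at 0 in members. The part of these cell types in the differences above was not tested. Without the library term 1 gene passed instead of 972 (312 at an unadjusted p under 0.05). DESeq2 called 265 genes, all among the 972, with 171 higher and 94 lower, and kept 36 of the 42 calls named here that it could test.

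**Figure D3:**
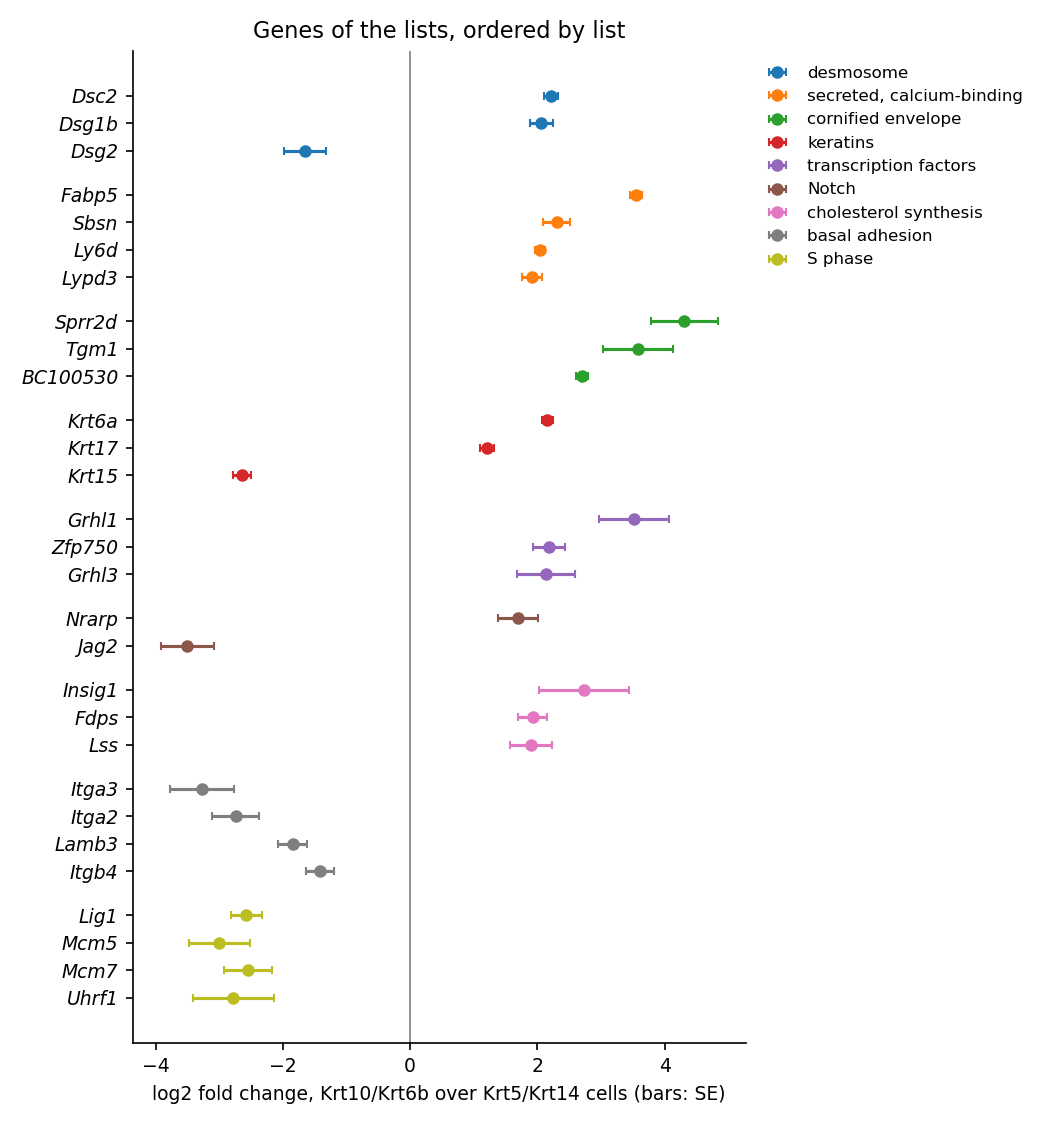
Log2 fold change of Krt10/Krt6b over Krt5/Krt14 cells from edgeR (horizontal; bars are standard errors) for genes of 9 lists, with the rule's own genes and the markers left out. Dsg2, Krt15 and Jag2 lie left of 0 within lists whose other genes shown lie right of it, and the basal adhesion and S phase genes all lie left of 0.

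The second comparison was with the 109 Krt1/Calm4 cells (52 and 57), which had at least 4 UMIs of Krt1, the keratin that pairs with Krt10, and Calm4, a calmodulin-like protein of differentiated keratinocytes. Of 6616 genes, 69 passed (1.04%), 43 higher (0.650%) and 26 lower (0.393%) in members. The count cannot be set against that of the first comparison, since it rests on far fewer cells. The median log2 fold change over all genes was 0.08. Of 7 keratins outside the rule 5 were higher in members and 0 lower. They were Krt6a, the marker Krt16 and the genes that follow. Krt17 stood at 671 and 624 CPM against 132 and 72.7 CPM (2.66 ± 0.26), and of the basal keratins Krt5 differed by 0.73 ± 0.09 and Krt14 by 0.59 ± 0.08, a call lost when the fit held these classes alone. Spink5 was 8882 and 3441 CPM against 3887 and 1468 CPM (1.26 ± 0.10). Calml3, a calmodulin-like protein, was 597 and 548 CPM against 248 and 305 CPM (1.20 ± 0.21). Igfbp2 was 1621 and 1215 CPM against 769 and 756 CPM (1.01 ± 0.14), Gap43 was 223 and 232 CPM against 41.4 and 72.7 CPM (2.2 ± 0.39) and Cbr2, a carbonyl reductase, was 486 and 599 CPM against 165 and 218 CPM (1.58 ± 0.24).

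Lower in members were Glul, glutamine synthetase, at 32.8 and 54.8 CPM against 149 and 189 CPM (-1.94 ± 0.40), Cpe, a carboxypeptidase, at 54.6 and 88.6 CPM against 232 and 276 CPM (-1.87 ± 0.32), and Slc14a1, a urea transporter, at 34.1 and 16.9 CPM against 124 and 189 CPM (-2.19 ± 0.44), a call lost with thinning. Tgm3, a transglutaminase of late differentiation, was 5.46 and 8.43 CPM in members against 57.9 and 102 CPM (-3.36 ± 0.83, edgeR adjusted p = 0.0079). It rests on 6 UMIs in members and 14 in Krt1/Calm4 cells. The call was lost with DESeq2, at a mitochondrial share of at most 10% and with no filter on low counts. In the lists 1 of 11 desmosome genes (Perp, a call lost with thinning and when the fit held these classes alone), 2 of 12 secreted and calcium-binding genes, and 0 of 25 transcription factors, 21 cholesterol synthesis genes and 26 S phase genes passed. Cornified envelope genes went both ways, with 2 higher and 4 lower of 14. The macrophage and dendritic markers summed to 686 CPM in the Krt1/Calm4 cells of WT 1 and 0.0 CPM in those of WT 2, and their part in these differences was not tested. Without the library term 0 genes passed (133 at an unadjusted p under 0.05), DESeq2 called 28, and fitted with these classes alone edgeR called 38.

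The third comparison was with the 354 Krt13/Krt4/Sprr1a cells (253 and 101), a differentiated class that makes the keratins of non-cornified lining epithelia. They had at least 4 UMIs of Krt13, Krt4 and Sprr1a, no fewer than of Krt10 and Krt6b, and at most 2 of Krt1 and Calm4. Cells with UMIs of both sets were thus placed by the larger sum, and either class can hold the other's genes. Of 6616 genes, 563 passed (8.51%), 349 higher (5.28%) and 214 lower (3.23%) in members, with a median of -0.02 over all genes. Members again had more of the desmosome genes (9 of 11 higher, 0 lower, among them Dsg1a), and all 3 metallothioneins were higher. Dsc3, a desmocollin, stood at 732 and 738 CPM against 302 and 183 CPM (1.53 ± 0.14). Mt2 was 3217 and 3036 CPM against 912 and 617 CPM (2.05 ± 0.11) and Mt1 was 2134 and 3167 CPM against 718 and 992 CPM (1.73 ± 0.11). Among keratins Krt17 was 671 and 624 CPM against 118 and 145 CPM (2.49 ± 0.17), Krt6a differed by 1.39 ± 0.09, and Krt15 was lower at 111 and 143 CPM against 714 and 674 CPM (-2.45 ± 0.16). Basal adhesion genes, which were lower in members than in Krt5/Krt14 cells, were higher here in 6 of 14 and lower in 0, with Col17a1, the hemidesmosome collagen, at 766 and 405 CPM against 337 and 193 CPM (1.31 ± 0.15).

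In the list of hormone receptors and targets 6 of 13 genes were higher, 0 were lower and 7 did not pass. Igfbp2 was 1621 and 1215 CPM in members against 186 and 96.4 CPM (3.29 ± 0.15). In Krt5/Krt14 cells Igfbp2 stood at 1367 and 1154 CPM, so a high level of it was not particular to members. Lrat, which stores retinol as its ester, was 86.0 and 101 CPM against 4.08 and 9.64 CPM (4.21 ± 0.56), and Rbp2 was 99.7 and 224 CPM against 16.3 and 67.4 CPM (2.37 ± 0.36). The others were Pgr, the progesterone receptor, Wnt4, and Greb1, an oestrogen-induced gene whose call DESeq2 did not make. Il1r2 was 796 and 687 CPM against 127 and 48.2 CPM (2.90 ± 0.18), and Slc2a1, the glucose transporter Glut1, was 262 and 274 CPM against 102 and 135 CPM (1.42 ± 0.21). Gap43 was 223 and 232 CPM against 20.4 and 38.5 CPM (3.32 ± 0.31).

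Among the 214 genes lower in members than in Krt13/Krt4/Sprr1a cells was Spink12, a serine protease inhibitor and the 1 gene lower of the 12 secreted and calcium-binding suprabasal genes, of which 7 were higher. Spink12 was 15.02 and 25.3 CPM against 386 and 713 CPM (-4.58 ± 0.27). Wfdc18, a secreted whey acidic protein, was 42.3 and 80.1 CPM against 357 and 780 CPM (-3.03 ± 0.22), and Il33, an alarmin of the interleukin-1 family, was 145 and 139 CPM against 751 and 935 CPM (-2.36 ± 0.16). Arg1, arginase 1, was 32.8 and 38.0 CPM against 296 and 202 CPM (-2.88 ± 0.27), and Epcam, a simple epithelial adhesion protein, was 68.3 and 67.5 CPM against 300 and 241 CPM (-1.96 ± 0.23). Scel, the envelope precursor sciellin, was 24.6 and 21.1 CPM against 190 and 86.7 CPM (-2.68 ± 0.33). Simple epithelial markers summed to 397 and 299 CPM in members against 877 and 819 CPM in Krt13/Krt4/Sprr1a cells, with 7 and 9 of 11 detected, and their part in these differences was not tested. Without the library term 0 genes passed (260 at an unadjusted p under 0.05). DESeq2 called 203 genes, with 150 higher and 53 lower, and kept 19 of the 20 calls named here that it could test.

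Members also differed among themselves. Those with more Krt6b than Krt10 UMIs (Krt6b-leading, 201 and 118 cells) were set against those with more Krt10 (Krt10-leading, 133 and 75 cells) in a fit of their own. Of 3385 genes, 192 passed (5.67%), 110 higher (3.25%) and 82 lower (2.42%) in Krt6b-leading cells, with a median of -0.01. Krt6b-leading cells were deeper, with a median of 2122 and 1249 UMIs against 1498 and 901, and had a lower median mitochondrial share of 3.16% and 2.88% against 3.89% and 3.70%. Thinning was done after the cells had been sorted by their full counts. The part of depth in how the cells were sorted was therefore not tested.

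Of 7 keratins outside the rule 5 were higher in Krt6b-leading cells and 1 was lower. Krt17 stood at 949 and 919 CPM in Krt6b-leading cells against 105 and 86.4 CPM in Krt10-leading cells (3.26 ± 0.19), the largest rise among genes of at least 100 CPM. The marker Krt16 was 19876 and 6330 CPM against 10180.5 and 2309 CPM. Krt6a was 8663 and 7011 CPM against 5119 and 4272 CPM (0.78 ± 0.05), Krt14 differed by 0.71 and Krt5 was the other one higher. Krt15 was lower (-1.07 ± 0.28), a call lost at a summed count of at least 8 and with no filter on low counts. Mt1 and Mt2 were higher, Mt2 at 3717 and 3406 CPM against 2070 and 2396 CPM (0.77 ± 0.07), whereas the marker Mt4 was 996 and 800 CPM against 1101 and 1000.2 CPM. Of 10 desmosome genes 5 were higher and 0 lower, among them the marker Dsg1a at 317 and 417 CPM against 189 and 210 CPM.

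Igfbp2 was 1976 and 1462 CPM in Krt6b-leading cells against 847 and 803 CPM in Krt10-leading cells (1.16 ± 0.09). Gjb2 was 526 and 470 CPM against 276 and 210 CPM (1.01 ± 0.17). Atp6v0a4, a subunit of the vacuolar proton pump, was 120 and 126 CPM against 17.5 and 37.0 CPM (2.43 ± 0.44), and Cav1, the coat protein of caveolae, was 203 and 52.9 CPM against 48.2 and 37.0 CPM (1.87 ± 0.35).

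Wfdc18 and Epcam, both higher in Krt13/Krt4/Sprr1a cells than in members, were also higher in Krt10-leading than in Krt6b-leading cells. Wfdc18 was 127 and 210 CPM in Krt10-leading against 4.14 and 13.2 CPM in Krt6b-leading cells (-4.39 ± 0.54), and Epcam was 136 and 136 CPM against 37.3 and 26.5 CPM (-1.93 ± 0.37). Ifitm3, an interferon-induced membrane protein, was 553 and 1173 CPM against 135 and 238 CPM (-2.10 ± 0.17). Cyp2f2, a cytochrome P450, was 180 and 272 CPM against 51.8 and 52.9 CPM (-1.91 ± 0.30), and Mgst1, a microsomal glutathione transferase, was 140 and 74.1 CPM against 22.8 and 33.1 CPM (-2.22 ± 0.44). Krt13, a gene of the rule, was 1667 and 815 CPM in Krt10-leading cells and 824 and 298 CPM in Krt6b-leading cells. Markers of other cell types moved with this split. The neutrophil and erythroid markers summed to 65.8 and 123 CPM in Krt10-leading cells, with a UMI of 3 of 8 genes, against 4.14 and 0.0 CPM in Krt6b-leading cells, with a UMI of 2 of 8. S100a9 gave 3 and 9 UMIs in Krt10-leading cells against 1 and 0, while Retnlg and Csf3r were at 0 in both. Simple epithelial markers, a list that holds Epcam, summed to 526 and 358 CPM in Krt10-leading cells against 336 and 251 CPM, with 6 of 11 detected in each and Krt8 at 0 in both. Their part in these differences was not tested. Of 51 ribosomal protein genes 16 were lower in Krt6b-leading cells and 0 higher, with a median of -0.22.

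Without the library term 0 genes passed in this split (29 at an unadjusted p under 0.05). DESeq2 called 35, with 29 higher and 6 lower, thinning to 800 UMIs gave 65, and members with a summed count of at least 8 gave 33; of the calls named in this split and testable there, 11 of 12 were kept at that count.

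**Figure D4:**
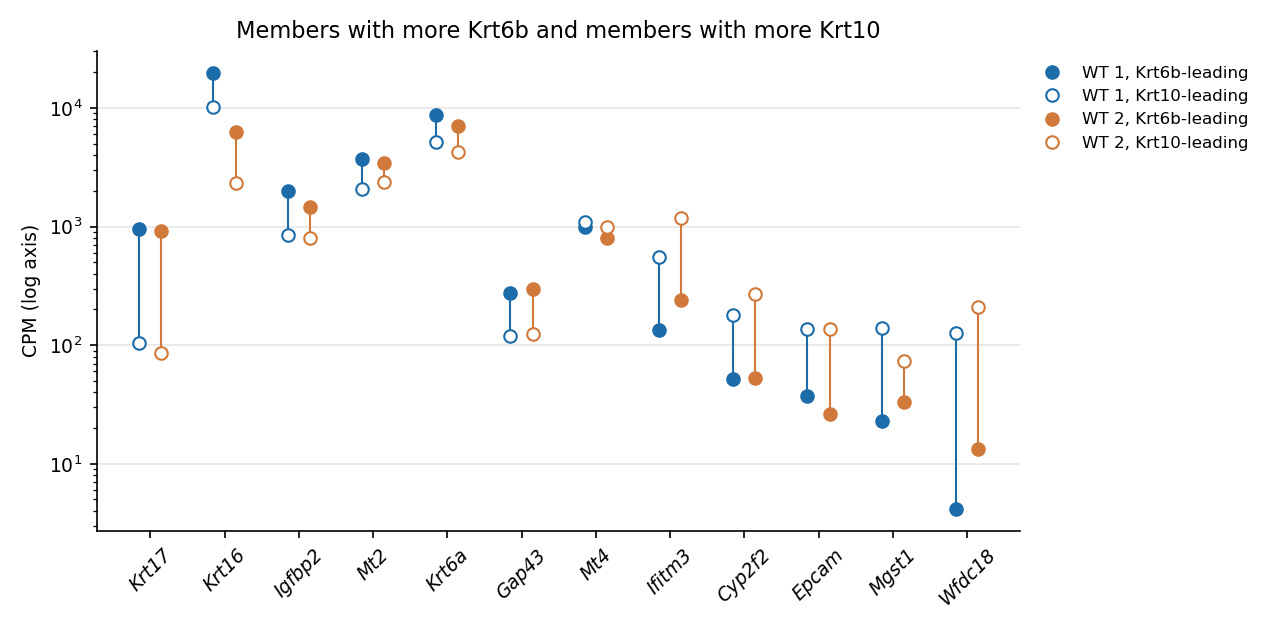
Level in CPM (log axis) of 12 genes in Krt6b-leading members (filled) and Krt10-leading members (open), joined within each library. Krt17 separates the members in both libraries, from 949 and 919 CPM down to 105 and 86.4 CPM, Mt4 lies close together, and Wfdc18, Ifitm3, Cyp2f2, Epcam and Mgst1 run the other way.

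The 2 WT libraries differed within the members. With 1 library on each side there is no test. Of 1055 genes with at least 200 CPM in the higher library, 355 differed by more than 2-fold, 187 higher in WT 1 and 168 higher in WT 2. The same side was seen in Krt5/Krt14 cells for 354 of them, and 285 passed 2-fold there too, so most of these differences were shared by both classes of a library. Rbbp6 had the largest ratio toward WT 1, at 228 CPM over 167 UMIs against 16.9 CPM over 4 UMIs, and the pseudogene Gm2000 the largest toward WT 2, at 131 CPM against 1514 CPM. Among the markers Krt16 differed between the libraries, at 16756 against 4829 CPM, and so did Krt5, while Krt10, Krt6b, Mt4 and Dsg1a lay within 1.5-fold of each other.

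The same rule was then applied to the OVX libraries. The class had been chosen as one of ovary-intact mice with earlier results of these data known, so the shares are a description with no test. In OVX 1 it passed 1 cell of 1573 (0.0636%, exact 95% binomial interval 0.00161 to 0.354%) and in OVX 2 it passed 1 of 1907 (0.0524%, 0.00133 to 0.292%). The share was 10.7 ± 1.18% in WT and 0.0580 ± 0.00787% in OVX (SD, n = 2 libraries per group), a difference of 10.7 percentage points with no overlap. Both OVX cells passed through Krt10 alone, with 9 and 8 UMIs, and held 0 UMIs of Krt6b, Krt16, Mt4 and Dsg1a; the OVX 2 cell had a mitochondrial share of 18.8%. OVX libraries were shallower, with a median of 435 and 738 UMIs per kept cell against 1597 and 799 in WT, but with every cell thinned to 400 UMIs the rule still passed 12.4% and 11.6% of WT cells against 0.0% (0 of 923, which allows up to 0.325%) and 0.0536% of OVX cells. With the summed Krt10 and Krt6b threshold set at 25 UMIs per 10000 in place of 4 UMIs, 15 cells of OVX 1 passed (0.954%) and 1 of OVX 2 (0.0524%), against 11.51% and 11.98% of WT cells. Signs of cell quality moved with the groups: the median mitochondrial share of kept cells was 8.97% and 9.69% in OVX against 4.0% and 3.85% in WT. The nuclear transcript Malat1 made up 2.50% and 1.81% of UMIs against 0.336% and 0.465%. Their part in the difference was not tested, but among cells with a mitochondrial share of at most 10% the rule passed 11.8% and 10.1% of WT cells against 0.105% and 0.0% of OVX cells (0 of 1023 in OVX 2, which allows up to 0.293%).

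Over all kept cells the same genes were scarce in OVX. Krt10 gave 68 and 89 UMIs in OVX 1 and OVX 2 (85.1 and 54.4 CPM) against 10085 and 3109 UMIs in WT (1730 and 1611 CPM). Krt6b gave 0 and 1 UMI, where 3 UMIs would be 3.76 and 1.83 CPM, against 1337 and 1328 CPM in WT. Krt16 gave 5 and 10 UMIs (6.26 and 6.11 CPM) against 3516 and 1059 CPM. Mt4 and Dsg1a gave 0 UMIs in both OVX libraries, under the same limits of 3.76 and 1.83 CPM, against 358 and 298 CPM for Mt4 and 72.6 and 85.5 CPM for Dsg1a in WT. In the sum over cells, fewer cells of the class and less transcript per cell cannot be told apart.

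**Figure D5:**
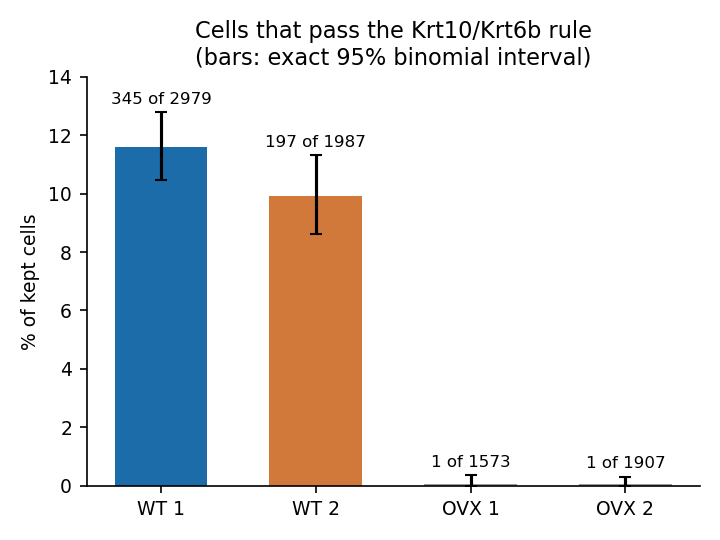
Share of kept cells that pass the Krt10/Krt6b rule in each library, with exact 95% binomial intervals that cover counting error only. WT 1 and WT 2 stand at 11.6% and 9.91%, and 1 cell passed in each OVX library.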

How the data were processed

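The deposited values are raw UMI counts, with genes in rows and cell barcodes in columns, and no normalization. Per the submitters' processing notes, the build was mm10 and Seurat 2 was used. Aligner and barcode filter were not given in the sources used here. Tissue was digested overnight with pronase and the epithelium pressed out with forceps, per the labels' protocols.

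Cells were sorted into 4 classes by raw UMI gates. Doublets were not called, so they remain. UMIs were summed per library and class and tested in R 4.3.3 with edgeR 4.0.16 (TMM, filterByExpr, quasi-likelihood test) in 1 fit over the 4 classes of the 2 WT libraries, with a library term, since the classes of a library come from the same mice. The 17 gate genes stayed out, and Krt5 and Krt14 also where they set the class compared. Standard errors are the log2 fold change divided by the square root of the test's F. The comparison with Krt5/Krt14 cells was also run on simulated sums. These held no difference between the libraries, so that run does not check the library term or the other comparisons. DESeq2 1.42.0 was an alternative. Shares of cells in WT and OVX were not tested, since the class was chosen as one of intact mice.

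The members, gates and 26 gene lists were chosen with earlier results of these data known. Named genes were the 10 largest rises and falls of at least 100 CPM that moved alike in both libraries and up to 4 called genes per list, from which the text names a part (some are not reported here); the text gives also a few further list members by name alone. Shared end sequence and positions are from GENCODE vM21, promoters from RefSeq. Shared end sequence was also found for Cbr2 (14.8%), Ifitm3 (14%) and Trbc2 (20.2%), among other genes named.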

Additional observations from a re-analysis of the deposited data

How the results depend on the processing

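Without the replicate block (the library term) edgeR called 1, 0, 0 and 0 genes in the comparisons with Krt5/Krt14, Krt1/Calm4 and Krt13/Krt4/Sprr1a cells and in the split of the members, instead of 972, 69, 563 and 192. DESeq2 with its own size factors called 265, 28, 203 and 35, and thinning each cell to 800 UMIs left 428, 30, 237 and 65, with fewer genes tested. In the split, no filter on low counts gave 116 calls and a summed count of at least 8 gave 33. Fitted with their own classes alone, the comparison with Krt1/Calm4 cells gave 38 calls. The calls named in the text, with the markers left out, are counted next in the same order of comparisons. DESeq2 kept 36 of 42, 12 of 13, 19 of 20 and 7 of 7. Thinning kept 34 of 36, 10 of 12, 20 of 20 and 11 of 11. Without the cells above the 95th percentile of UMIs, 41 of 42, 13 of 13, 20 of 20 and 13 of 13 were kept. At a mitochondrial share of at most 10%, 46 of 46, 12 of 13, 20 of 20 and 13 of 13 were kept. Without the replicate block 0 of 46, 0 of 13, 0 of 20 and 0 of 14 were kept. None of these calls changed sign in these fits. The log2 difference of the marker Dsg1a from Krt1/Calm4 cells, given as a description, turned to -0.018 with thinning. The difference in the share of cells that pass the rule, WT minus OVX, ran from 7.57 to 13.6 percentage points under other gates, depths and cell filters, and from 9.86 to 11.5 when each library was left out. Leaving out a WT library leaves no residual degrees of freedom for the gene tests, so no count of calls was possible there. The log2 fold changes of named genes then moved by more than the SD of the 2 libraries in 71 results without WT 1 and in 15 without WT 2, with 33 and 90 inside it, and Hes1 against Krt5/Krt14 cells turned to -0.22 without WT 1 and stood at 0.52 without WT 2. Depth limits the low genes most, since WT 2 members held 237120 UMIs in all, so that 1 UMI is 4.22 CPM.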
